A study of Mus musculus with 6 samples.

Results

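The fibroblast growth factor (FGF) set comprised 32 mouse genes, of 20659 named on the array, chosen by name: 13 paracrine ligands, 2 endocrine ligands, 4 intracellular FGFs, 4 receptors, the adaptor Frs2, 5 feedback inhibitors and 3 target transcription factors. Every gene probe whose accession was matched to one of these symbols was included, which gave 47 of the 39429 gene probes on the array. Of these, 41 probes of 28 genes were bright enough to be tested.

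FGF ligands bind receptor tyrosine kinases together with heparan sulphate chains, and the activated receptors signal through Frs2 to the RAS and ERK kinases. ERK signalling induces the Ets factors Etv1, Etv4 and Etv5 and the inhibitors of the Sprouty, Spred and Dusp families, which dampen the pathway. In the mid-gestation embryo FGFs are known for their roles in limb outgrowth, the midbrain-hindbrain boundary and the branching of the lung, and the intracellular FGFs are a separate group that binds sodium channels rather than receptors.

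Whole embryos at 12 days were homozygous or heterozygous for a STAT3-K177K180R allele, or wild type, with 2 embryos per genotype and 1 one-colour Agilent array per embryo. The allele name reads as arginine in place of lysine at 2 residues of STAT3, a transcription factor activated by cytokine receptors. Per the labels, embryos of the 3 genotypes came from one womb, and no separate litters or parents were named, while the design text speaks of 2 independent experiments per group. The wild-type genotype field also contains the word mutant, and the extraction text names tumor tissue, so the genotypes in the sample titles were followed. Because p-values measure only the spread between these samples, and 2 embryos per genotype were measured, precision is limited by the number of arrays. In whole embryos, fewer cells of a type and less RNA per cell cannot be told apart.

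Between 70.7% and 77.3% of gene probes were well above background on each array. The homozygous arrays were scanned apart from the others, on a second slide at positions 3 and 4, so that an effect of the slide and one of this genotype cannot be told apart. Their negative control spots had median signals of 43.5 and 48, against 27 and 26 in heterozygous and 26 in both wild-type arrays. The 75th percentile of the gene spots was 860 and 785 in homozygous, 1187 and 1263 in heterozygous and 1037 and 1067 in wild-type arrays. Marker genes of fetal hepatocytes, erythroid cells, neurons and skeletal muscle were read beside the labelled tissue. All 8, 7, 8 and 8 of their probes passed the brightness filter. So did 29908 of all 39429 gene probes, so passing it does not identify a tissue.

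Levels are given as log2 of the background-subtracted signal minus log2 of the array's own 75th percentile, so a negative value lies below that percentile. A level was never set against that of another probe, since probes differ in brightness for the same amount of RNA. Differences are homozygous or heterozygous minus the other genotype on this log2 scale, with the standard error (SE) of a limma fit to all 6 arrays. A probe was called where the Benjamini-Hochberg p adjusted over all 29908 tested probes was below 0.05. The brightness filter kept a probe if, in 1 genotype or more, neither array flagged it as too close to background. In the FGF set 38 of the 41 tested probes were so on all 6 arrays, and none passed through 1 genotype only. Spry2 was well above background on 1 array only, in a homozygous embryo. The single probes of Fgf2, Fgf3 and Fgf16, as well as 1 probe each of Fgf1 and Fgf8, were not well above background on any array.

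**Figure D1:**
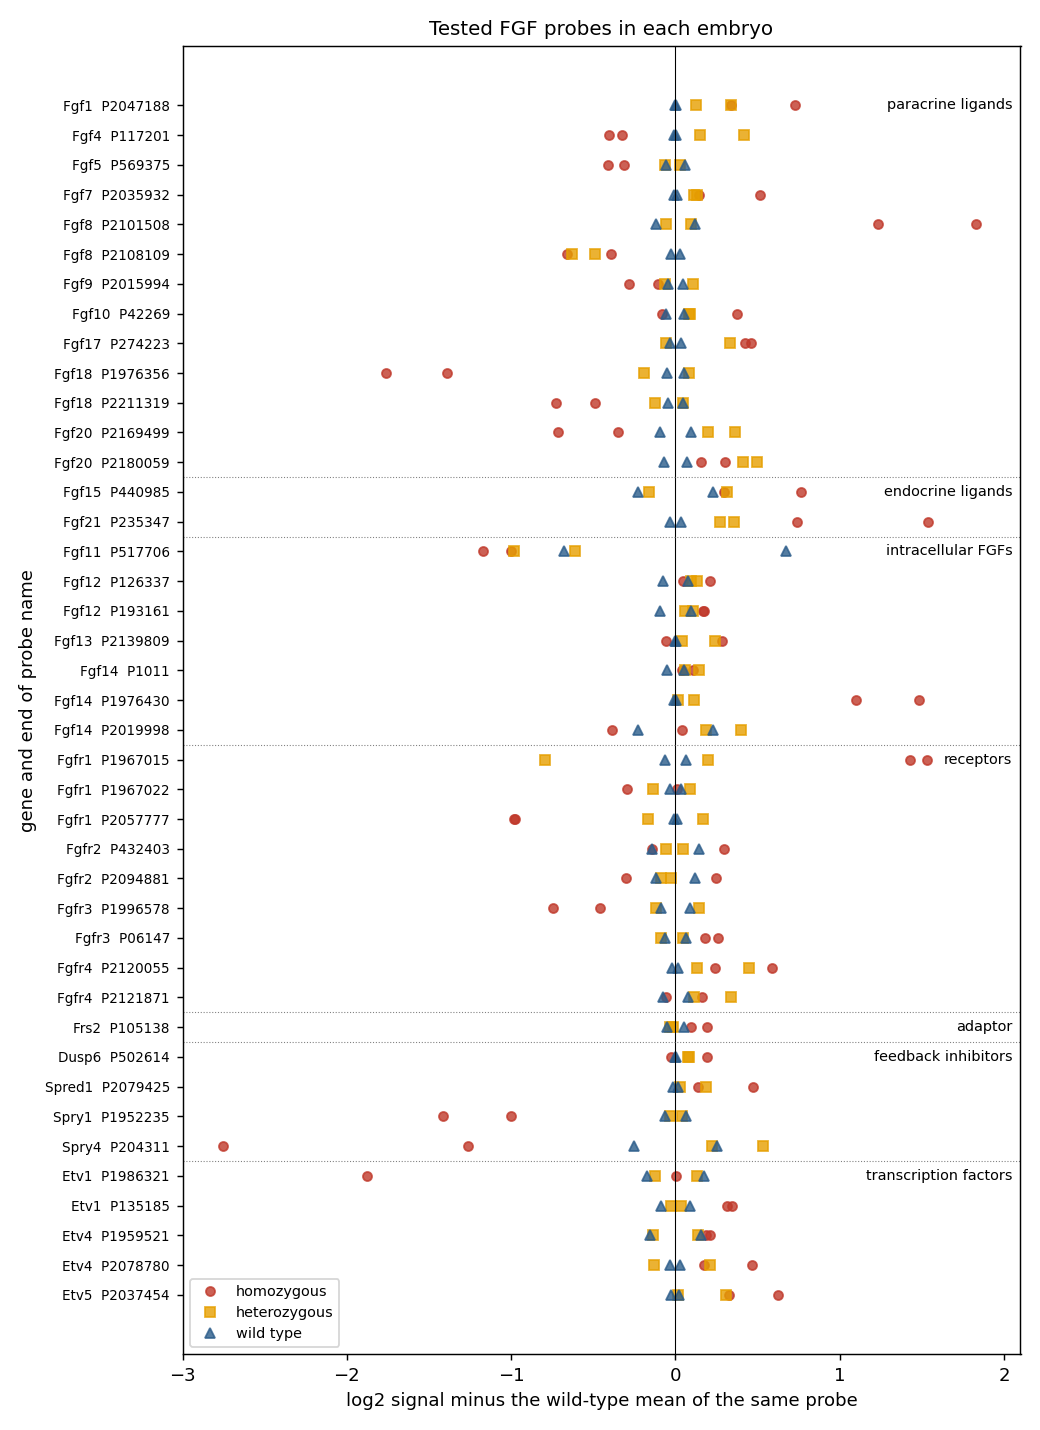
Each row is 1 tested FGF probe, and each symbol is 1 embryo (circle, homozygous; square, heterozygous; triangle, wild type). The x axis is the normalized log2 signal minus the wild-type mean of that probe. Homozygous and wild-type embryos do not overlap in 30 of the 41 rows (73.2%), against 68.9% of all tested probes. Their means differ by more than 1 for Spry1, Spry4, Fgf21, Fgf11 and 1 probe each of Fgf8, Fgf14, Fgf18 and Fgfr1. For Fgf11, which was not called, the wild-type embryos themselves lie far apart.

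In homozygous against wild-type embryos, signal was lower for the feedback inhibitors Spry1 and Spry4, each with 1 probe on the array. The ligand Fgf18 was lower at both of its probes. Fgf21, also with 1 probe on the array, and 1 probe each of Fgf8 and Fgf14 were higher. Of Fgfr1, 2 probes were called in opposite directions. In all, 11 of 41 FGF probes (26.8%) of 8 genes were called, 4 higher and 7 lower. Over all tested probes 27.7% were called, 13.2% higher and 14.6% lower, so the share in the FGF set was close to the background. Groups did not overlap in 30 FGF probes (73.2%), against 68.9% of all probes. The median difference of the FGF probes was 0.11, beside 0.08 over all tested probes. At an unadjusted p below 0.05 there were 19 FGF probes, against 42.3% of all probes. Of all calls 67.2% were higher when normexp correction preceded the 75th percentile, against 47.5% as reported.

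**Figure D2:**
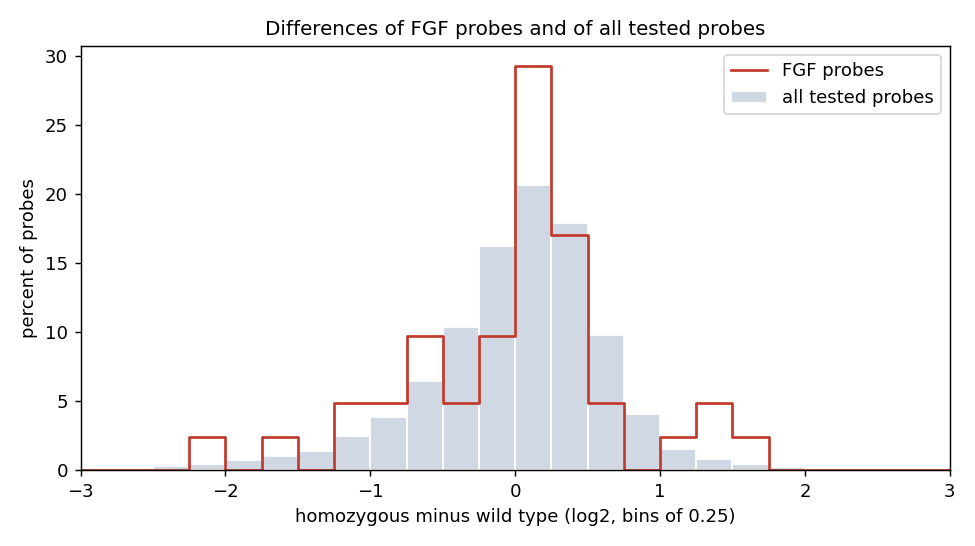
The line shows the percent of the 41 tested FGF probes, and the bars the percent of all 29908 tested probes, in bins of the homozygous minus wild-type difference on the log2 scale. Both have their peak just above 0, and the FGF medians and overall medians were 0.11 and 0.08.

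Among the ligands, which are secreted and act on neighbouring cells, Fgf18 was called lower at both of its probes. Fgf18, a growth factor of skeletal and lung development, had levels at probe A_55_P1976356 of -0.45 and -0.82 in homozygous, 1.02 and 0.76 in heterozygous, and 0.89 and 1.00 in wild-type embryos. The homozygous embryos lay below all others, without overlap, while heterozygous and wild-type values overlapped. Homozygous minus wild type was -1.58 (SE 0.18, adjusted p = 0.00257). A second Fgf18 probe, A_55_P2211319, read 1.56 and 1.32 in homozygous, 2.09 and 1.92 in heterozygous, and 2.00 and 2.09 in wild-type embryos. It fell by 0.61 (SE 0.15, adjusted p = 0.0272), so both probes of the gene were lower in both homozygous embryos, by differences of unequal size. The smaller one was no longer called without wild-type replicate 1 (difference -0.65), wild-type replicate 2 (-0.56) or homozygous replicate 2 (-0.49). It was also lost with no brightness filter (adjusted p = 0.0523). Leaving out either wild-type array left far fewer calls over all probes, so a call lost there is not particular to a gene.

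Fgf8, a ligand made at the limb bud tip and the midbrain-hindbrain boundary, gave opposite results at its 2 tested probes, except with normexp and the 75th percentile, where both were above 0. At A_55_P2101508 its level was -2.79 and -3.39 in homozygous, -4.53 and -4.68 in heterozygous, and -4.51 and -4.74 in wild-type embryos. In both homozygous embryos it was higher than in the other 4, by 1.53 over wild type (SE 0.22, adjusted p = 0.00542). At A_55_P2108109 the level was -6.18 and -6.44 in homozygous, -6.27 and -6.41 in heterozygous, and -5.76 and -5.81 in wild-type embryos. Here the wild-type embryos were the highest and homozygous minus wild type was -0.53 (SE 0.15, adjusted p = 0.0413), with 1 of the 2 homozygous arrays well above background. That second call was lost in 8 of 13 alternatives and reversed in 1. Both probes carry the same Fgf8 accession, and their positions in the transcript were not analysed here.

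Fgf4 and Fgf20, paracrine ligands of limb ridge and inner ear or brain development in the mouse, were called lower against heterozygous but not against wild-type embryos. Fgf4 had levels of -4.77 and -4.84 in homozygous, -4.02 and -4.29 in heterozygous, and -4.43 and -4.44 in wild-type embryos, so wild type lay between the others. Fgf20 at A_55_P2169499 read -6.16 and -5.79 in homozygous, -5.25 and -5.08 in heterozygous, and -5.53 and -5.35 in wild-type embryos. Homozygous minus wild type was -0.37 for Fgf4 (adjusted p = 0.102) and -0.53 for this Fgf20 probe (adjusted p = 0.0624). The other Fgf20 probe, A_55_P2180059, read -4.84 and -4.70 in homozygous, -4.50 and -4.59 in heterozygous, and -5.07 and -4.93 in wild-type embryos. It differed from wild type by 0.23 in homozygous embryos (adjusted p = 0.242), the other way from the first probe.

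The other paracrine ligands were not called in any comparison. Fgf17, a ligand of the Fgf8 subfamily, had 2.37 and 2.33 in homozygous, 2.24 and 1.85 in heterozygous, and 1.94 and 1.87 in wild-type embryos. Both homozygous embryos were above the other 4, but the difference from wild type of 0.44 did not pass (adjusted p = 0.0881). Fgf1, which can bind all FGF receptors, read -1.49 and -1.88 in homozygous, -1.88 and -2.09 in heterozygous, and -2.22 and -2.21 in wild-type embryos. Its difference was 0.53 (adjusted p = 0.0619), and normexp correction with the 75th percentile made it pass (0.0237).

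Fgf7 and Fgf10 are mesenchymal ligands that act on epithelia. Fgf7 had 0.06 and 0.44 in homozygous, 0.03 and 0.05 in heterozygous, and -0.09 and -0.07 in wild-type embryos. Fgf10 had -2.19 and -1.73 in homozygous, -2.03 and -2.02 in heterozygous, and -2.06 and -2.16 in wild-type embryos, so homozygous embryos overlapped the others, while heterozygous and wild-type embryos did not overlap. Their differences from wild type were 0.33 (adjusted p = 0.165) and 0.15 (adjusted p = 0.556). Fgf9, an epithelial and mesothelial ligand of lung and gonad, had -1.07 and -1.24 in homozygous, -0.85 and -1.02 in heterozygous, and -1.01 and -0.91 in wild-type embryos. Fgf5, a regulator of the hair cycle, had -3.72 and -3.82 in homozygous, -3.47 and -3.38 in heterozygous, and -3.47 and -3.35 in wild-type embryos. Both homozygous embryos were the lowest for these genes, at -0.19 (adjusted p = 0.329) and -0.36 (adjusted p = 0.0803) from wild type.

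Fgf21, an endocrine ligand of liver and fat metabolism, had levels of -5.79 and -4.99 in homozygous, -6.17 and -6.26 in heterozygous, and -6.56 and -6.49 in wild-type embryos. The 3 genotypes did not overlap, with heterozygous embryos between the others. Homozygous minus wild type was 1.14 (SE 0.25, adjusted p = 0.0216). The unscaled signals were dim, at 15.6 and 24.6 in homozygous, 16.5 and 16.5 in heterozygous, and 10.97 and 11.83 in wild-type arrays. The difference was 0.74 without homozygous replicate 2, and the probe did not pass when either wild-type replicate was left out (adjusted p = 0.109 and 0.104). With normexp and quantile normalization the difference was 0.30 (adjusted p = 0.0751), where an offset of 50 draws differences of dim probes toward 0. Fgf15, the intestinal endocrine ligand that is also made in the embryonic brain, had -2.89 and -2.42 in homozygous, -2.87 and -3.35 in heterozygous, and -3.42 and -2.96 in wild-type embryos. Homozygous and wild-type embryos did not overlap, but the difference of 0.53 did not pass (adjusted p = 0.164).

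Among the intracellular FGFs, 1 of 3 tested Fgf14 probes was called. Fgf14, a sodium channel partner in neurons, had -4.54 and -4.16 at A_55_P1976430 in homozygous, -5.63 and -5.53 in heterozygous, and -5.64 and -5.65 in wild-type embryos. The homozygous embryos lay above the other 4, by 1.29 over wild type (SE 0.16, adjusted p = 0.00356). The unscaled signals were 36.9 and 43.8 in homozygous, 24.0 and 27.3 in heterozygous, and 20.8 and 21.2 in wild-type arrays. At A_52_P1011, which carries another Fgf14 accession, levels were -3.56 and -3.50 in homozygous, -3.55 and -3.46 in heterozygous, and -3.66 and -3.55 in wild-type embryos. The difference there was 0.07 (adjusted p = 0.684). At A_55_P2019998 neither homozygous array was well above background, and homozygous and wild-type values overlapped, so no fold is given (adjusted p = 0.583).

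The remaining intracellular FGFs were not called. Fgf11 read -4.20 and -4.37 in homozygous, -3.81 and -4.18 in heterozygous, and -3.87 and -2.52 in wild-type embryos, where 1 wild-type embryo was far above the other 5. Its difference from wild type was -1.09 (SE 0.41, adjusted p = 0.0962), and it passed at -1.76 without wild-type replicate 1 (0.0183). Fgf12 at A_51_P126337 had -3.29 and -3.45 in homozygous, -3.36 and -3.40 in heterozygous, and -3.57 and -3.42 in wild-type embryos. Fgf13 had -1.40 and -1.06 in homozygous, -1.30 and -1.10 in heterozygous, and -1.34 and -1.34 in wild-type embryos, where homozygous embryos overlapped the others for both genes and heterozygous and wild-type embryos did not overlap.

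**Figure D3:**
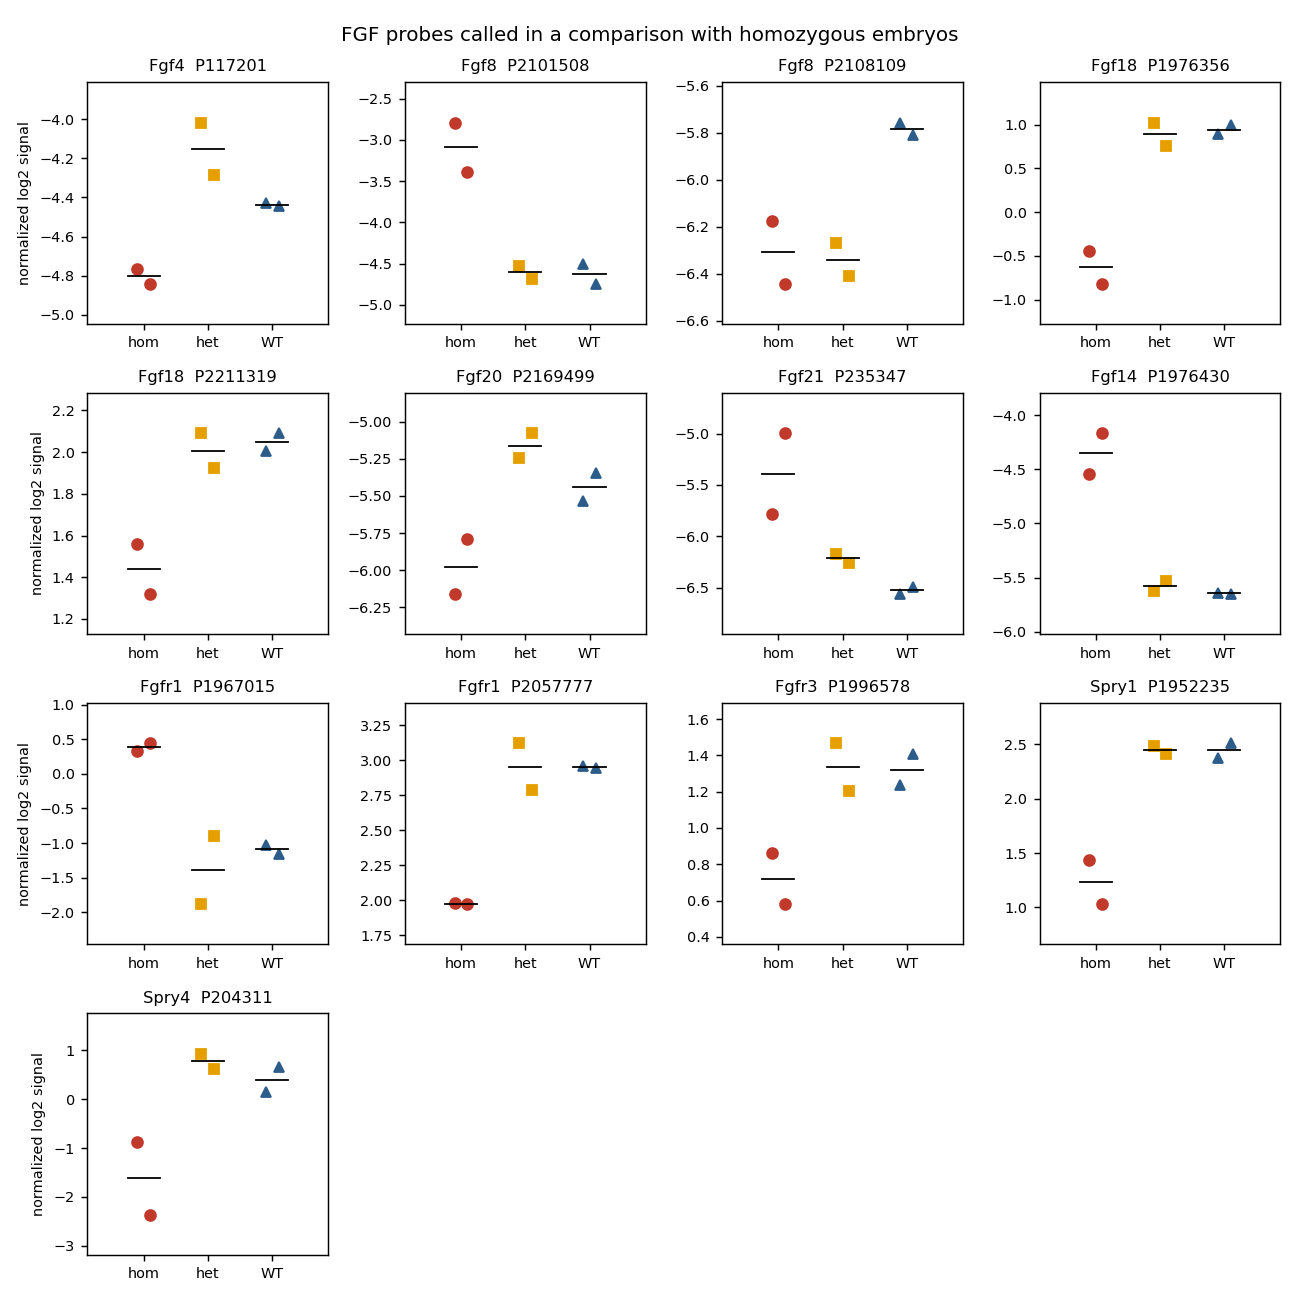
Each panel is 1 FGF probe called between homozygous and wild-type or heterozygous embryos, with 1 symbol per embryo, a bar at the mean of each genotype, and the normalized log2 signal on a y axis of its own. Heterozygous and wild-type embryos have similar levels for Spry1, Fgf18 and the higher Fgf8 and Fgf14 probes, whereas wild type lies between the other genotypes for Fgf4 and Fgf20.

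Of the 4 receptors, Fgfr1 and Fgfr3 had called probes. Fgfr1, the main receptor of mesenchyme, was measured by 3 probes that carry the same accession. At A_55_P1967015 it read 0.33 and 0.44 in homozygous, -1.88 and -0.89 in heterozygous, and -1.03 and -1.16 in wild-type embryos. The homozygous level exceeded the rest in both embryos, by 1.48 over wild type (SE 0.31, adjusted p = 0.0168). At A_55_P2057777 it read 1.98 and 1.97 in homozygous, 3.12 and 2.79 in heterozygous, and 2.96 and 2.95 in wild-type embryos. There both homozygous embryos were the lowest, with a difference of -0.98 (SE 0.15, adjusted p = 0.00692).

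The third Fgfr1 probe, A_55_P1967022, had -2.17 and -1.87 in homozygous, -1.79 and -2.01 in heterozygous, and -1.84 and -1.91 in wild-type embryos. Its groups overlapped and the difference was -0.14 (adjusted p = 0.529), so the 3 probes give no single direction for Fgfr1. Neither of the called probes passed without wild-type replicate 1 or wild-type replicate 2, where fewer probes of any gene were called. Their differences there stayed between 1.42 and 1.54 for the higher and between -0.99 and -0.97 for the lower.

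Fgfr3, which restrains growth of cartilage, had 0.86 and 0.58 at A_55_P1996578 in homozygous, 1.47 and 1.21 in heterozygous, and 1.23 and 1.41 in wild-type embryos. The homozygous embryos were the lowest, at -0.60 from wild type (SE 0.17, adjusted p = 0.0416). This call was lost in 8 of 14 alternatives, including those without either wild-type replicate, at differences of -0.69 and -0.51. The other Fgfr3 probe, A_65_P06147, differed by 0.22 (adjusted p = 0.246), in the other direction. Fgfr2, the receptor of many epithelia, had -2.38 and -1.83 at A_55_P2094881 in homozygous, -2.16 and -2.10 in heterozygous, and -1.96 and -2.19 in wild-type embryos, with overlap. Fgfr4, a receptor of liver and muscle, had 0.24 and -0.11 at A_55_P2120055 in homozygous, 0.10 and -0.22 in heterozygous, and -0.33 and -0.36 in wild-type embryos. Its difference from wild type of 0.41 did not pass (adjusted p = 0.129).

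**Figure D4:**
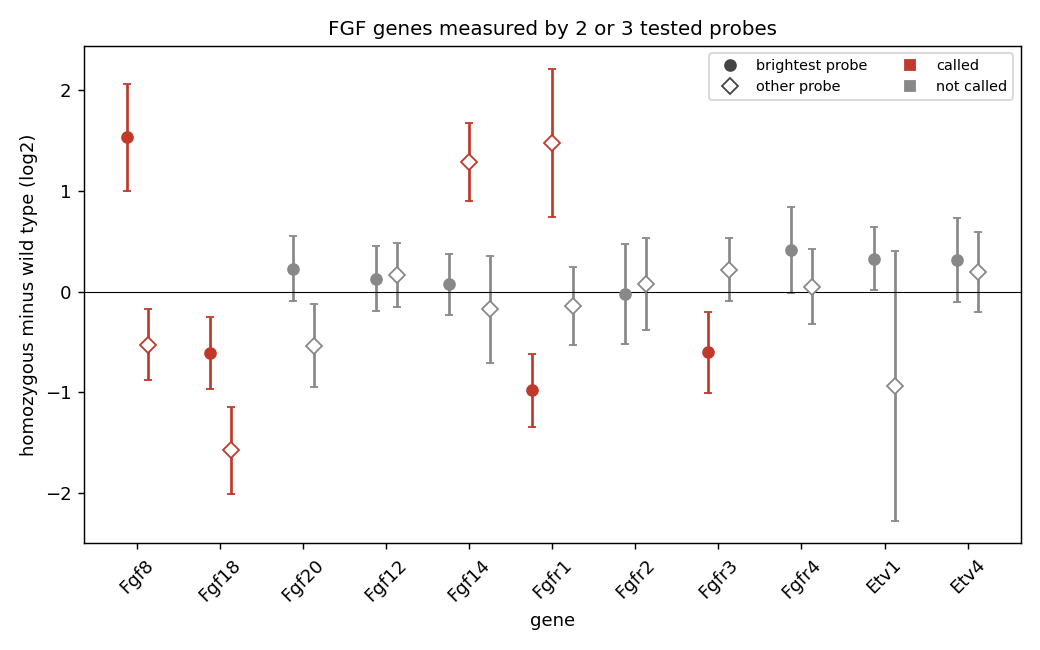
For the 11 FGF genes with 2 or 3 tested probes, each symbol is the homozygous minus wild-type difference (log2) of 1 probe, with its 95% confidence interval from the limma fit; filled circles mark the probe with the highest mean signal, open diamonds the others, and red the called probes. Fgf8 and Fgfr1 have called probes on either side of 0 (the lower Fgf8 probe changes sign with normexp and the 75th percentile), whereas both Fgf18 probes lie below it.

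The tested feedback inhibitors, each with 1 probe, divided into 2 genes that were lower and 2 that were not called. Over all tested probes 14.6% were lower, and among the further feedback inhibitors described below 2 of 10 probes were. Spry1, a Sprouty inhibitor of ERK signalling needed for kidney development, had 1.44 and 1.03 in homozygous, 2.48 and 2.41 in heterozygous, and 2.38 and 2.51 in wild-type embryos. It fell by 1.21 (SE 0.17, adjusted p = 0.00517) relative to wild type, with no overlap between the homozygous and other embryos. Without wild-type replicate 2, where fewer probes of any gene were called, it was not called, at a difference of -1.14.

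Spry4, another Sprouty gene, had -0.87 and -2.36 in homozygous, 0.93 and 0.62 in heterozygous, and 0.14 and 0.65 in wild-type embryos. Both homozygous embryos were below the other 4, but they differed widely between themselves. The difference from wild type was -2.01 (SE 0.47, adjusted p = 0.0244). It was -1.26 without homozygous replicate 2 and -2.75 without homozygous replicate 1. Spry4 was not called with no brightness filter (adjusted p = 0.0504). It was also not called without wild-type replicate 1 (difference -2.26) or 2 (-1.75), where fewer probes of any gene were called.

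Dusp6, a phosphatase that inactivates ERK, had 2.04 and 2.26 in homozygous, 2.15 and 2.14 in heterozygous, and 2.07 and 2.07 in wild-type embryos. The 95% confidence interval of its homozygous minus wild-type difference ran between -0.24 and 0.40, around 0.08 (adjusted p = 0.676). Spred1, an inhibitor of RAS activation, had 0.89 and 1.22 in homozygous, 0.78 and 0.94 in heterozygous, and 0.77 and 0.74 in wild-type embryos, a difference of 0.30 (adjusted p = 0.192). The adaptor Frs2 read 0.84 and 0.93 in homozygous, 0.73 and 0.71 in heterozygous, and 0.69 and 0.80 in wild-type embryos, a difference of 0.14 (adjusted p = 0.422).

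None of the 5 probes of the target transcription factors Etv1, Etv4 and Etv5 was called. Etv5, an Ets factor induced by FGF signalling, had 1.86 and 1.56 in homozygous, 1.54 and 1.25 in heterozygous, and 1.26 and 1.21 in wild-type embryos. Both homozygous embryos were the highest, at 0.47 above wild type (95% confidence interval 0.07 to 0.88, adjusted p = 0.0799). Etv4 differed by 0.32 (adjusted p = 0.206) and 0.20 (adjusted p = 0.403) at its probes. Etv1 differed by 0.33 at A_66_P135185 (adjusted p = 0.105) while at A_55_P1986321 neither homozygous array was well above background, so no fold is given (adjusted p = 0.245).

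Promoter sequence is shown for the 3 called genes below, chosen after their values were seen, as members that were lower (Spry1, Fgf18) and higher (Fgf21) in homozygous embryos. The sequences are the 250 bases before the gene start in RefSeq GRCm38.p6, in the direction of the gene: Spry1 at chr3:37639697-37639946 on the plus strand, Fgf18 at chr11:33147401-33147650 and Fgf21 at chr7:45615491-45615740, both on the minus strand. Capitals mark the Ets core letters GGAA on either strand, so that TTCC in capitals is a match on the opposite strand.
Spry1: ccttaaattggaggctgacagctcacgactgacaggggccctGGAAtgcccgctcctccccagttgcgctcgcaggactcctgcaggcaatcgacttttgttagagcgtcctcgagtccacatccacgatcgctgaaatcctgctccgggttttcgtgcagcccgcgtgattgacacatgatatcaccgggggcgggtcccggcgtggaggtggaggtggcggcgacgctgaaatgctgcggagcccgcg
Fgf18: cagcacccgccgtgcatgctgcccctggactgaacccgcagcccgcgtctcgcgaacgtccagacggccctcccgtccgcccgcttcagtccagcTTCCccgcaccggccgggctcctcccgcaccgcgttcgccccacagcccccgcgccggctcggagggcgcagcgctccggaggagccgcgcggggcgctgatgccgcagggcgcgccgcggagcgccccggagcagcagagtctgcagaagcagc
Fgf21: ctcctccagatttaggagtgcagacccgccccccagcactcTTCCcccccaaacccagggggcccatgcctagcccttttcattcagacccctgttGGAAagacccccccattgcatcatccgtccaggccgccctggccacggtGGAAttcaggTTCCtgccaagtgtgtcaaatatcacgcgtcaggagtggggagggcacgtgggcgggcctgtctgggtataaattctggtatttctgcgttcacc

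Spry1 and Fgf18 held 1 GGAA match each and Fgf21 held 4, beside a median of 3 over the 32851 RefSeq windows of the same length. At least 1 GGAA match was found in 93.4% of those windows. This core was added after the longer Ets motif GGAAGT and the STAT motif TTCNNNGAA, both read on either strand, had matched none of these 3 windows. GGAAGT contains GGAA, so the counts overlap. Over the 32 windows available for 23 of the FGF genes, TTCNNNGAA matched 1, of Fgf12, against 7.02% of all windows. GGAAGT matched 3, of Frs2, Etv5 and Fgf13, against 19.7%. The windows were 62.4%, 77.2% and 59.6% G or C in Spry1, Fgf18 and Fgf21, with 23, 37 and 9 CG pairs, beside medians of 52.4% and 6 over all windows.

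In heterozygous against wild-type embryos, no FGF probe was called, and no probe of any gene was called by limma (0%). In simulated arrays with 200 changed probes, 0% of 2-fold and 75% of 4-fold changes were recovered in this comparison. The absence of calls therefore does not show equal levels. At an unadjusted p below 0.05 there were 2 FGF probes of 41, beside 2.09% of all tested probes. These were Fgf20 at A_55_P2180059, 0.45 higher, and Fgf8 at A_55_P2108109, with a difference of -0.56, each at an adjusted p of 1.00. Groups did not overlap in 16 FGF probes (39.0%), against 26.5% of all tested probes. For Spry1 the difference was 0.00 (SE 0.17), for Fgf18 at A_55_P1976356 it was -0.05 (SE 0.18) and for Spry4 it was 0.38 (SE 0.47).

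In homozygous against heterozygous embryos, 11 of 41 FGF probes of 9 genes were called, 3 higher and 8 lower, where 22.7% of all probes were called, 9.56% higher and 13.1% lower. At an unadjusted p below 0.05 there were 14 FGF probes, against 39.1% of all probes. Groups did not overlap in 26 FGF probes (63.4%), against 62.9% overall. This comparison shares the homozygous arrays with the comparison against wild type, so the values stand side by side without a count of shared calls. Spry1 was at -1.21 (adjusted p = 0.00614), Spry4 at -2.39 (0.0167) and Fgf18 at -1.52 (0.00332) and -0.57 (0.0380). The higher Fgf8, Fgf14 and Fgfr1 probes differed by 1.52 (0.00670), 1.23 (0.00499) and 1.78 (0.0113).

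Fgf4 fell by 0.65 (SE 0.14, adjusted p = 0.0239) and Fgf20 at A_55_P2169499 by 0.81 (SE 0.17, adjusted p = 0.0216) relative to heterozygous embryos, with signs that turned under normexp and the 75th percentile. Neither passed with 2 genotypes only in the fit (adjusted p = 0.0678 and 0.0520). The lower Fgfr1 probe was at -0.98 (adjusted p = 0.00807) and the Fgfr3 probe at -0.62 (adjusted p = 0.0446). Fgf21 differed by 0.82, which did not pass (adjusted p = 0.0621). Leaving out heterozygous replicate 1 left 1 FGF probe called lower, and with normexp correction and the 75th percentile 75.9% of all calls were higher, against 42.1% as reported. In the F-test for any genotype difference, 11 of 41 FGF probes of 9 genes passed, against 21.0% of all tested probes.

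The embryos of a genotype differed from each other most in the homozygous pair. The median difference between the 2 embryos over the FGF probes was 0.29 in homozygous, 0.17 in heterozygous and 0.11 in wild-type embryos, beside 0.25, 0.17 and 0.11 over all tested probes. Counting only FGF probes that both embryos of a genotype measured well above background, the widest gap in homozygous embryos was at Spry4 (1.49), in heterozygous embryos at Fgfr1 A_55_P1967015 (0.99) and in wild-type embryos at Fgf11 (1.35).

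Other genes of the pathway came from a list of co-receptors and extracellular regulators, signal relays and further feedback inhibitors, 57 of which were tested. Homozygous against wild type, 8 were called higher and 4 lower, and 44 were not called. By probe, 17.5% of the 80 tested on this list were called, below the 27.7% of all tested probes. Among the 23 co-receptor and extracellular genes, Ext1, an enzyme that builds heparan sulphate, had -0.85 and -0.82 in homozygous, 0.41 and 0.29 in heterozygous, and 0.50 and 0.29 in wild-type embryos. The heparan sulphate carrier Sdc3 had -0.59 and -0.76 in homozygous, 0.77 and 0.59 in heterozygous, and 0.63 and 0.52 in wild-type embryos. Ext1 fell by 1.23 (adjusted p = 0.00255) and Sdc3 by 1.25 (adjusted p = 0.00257), with both homozygous embryos below all others.

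Fgfrl1, a receptor without a kinase domain, was 0.77 higher (adjusted p = 0.00972), and the sulphotransferase Hs2st1, the binding protein Fgfbp3 and Sdc1 were 0.90, 0.64 and 0.68 higher. Among the 24 relay genes, those called higher included the adaptor Frs3 by 0.97 and Braf, a kinase downstream of RAS, by 0.72 at a dim probe. Another Braf probe, at 0.27 and 0.67 in homozygous and 0.08 and -0.06 in wild-type embryos, was not called. Of 10 further feedback genes, the RAS inhibitors Rasa1 and Nf1 were lower, at -0.76 (adjusted p = 0.0110) and -0.54 (adjusted p = 0.0410). Against heterozygous embryos 4 of the 57 genes were higher, 4 were lower and 48 were not called (12.5% of probes, against 22.7% of all), and in heterozygous against wild-type embryos none was called.

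Markers of tissues that make or receive FGFs were read beside these results. Homozygous against wild type, 27.7% of all tested probes were called, 13.2% higher and 14.6% lower, and 26.7% of the limb bud probes. Of 15 limb bud probes 1 was higher in homozygous than in wild-type embryos and 3 were lower, and the mean level of the list ran between -1.52 and -1.33 in homozygous, -1.45 and -1.35 in heterozygous, and -1.27 and -1.20 in wild-type embryos. By sign 7 of the 15 were above 0 and the median was -0.06. The called probes were those of Msx2 (0.82), Prrx1 (-1.72), Sp8 (-1.29) and Lmx1b (-0.60), while the other probes of Prrx1 (-0.06), Sp8 (0.47) and Lmx1b (-0.45) were not called. Of 7 tested midbrain-hindbrain probes, 1 of Wnt1 was called, 1.67 higher (adjusted p = 0.00161), at -0.86 and -0.59 in homozygous, -2.10 and -2.34 in heterozygous, and -2.44 and -2.35 in wild-type embryos. The other 6 were not called, and 4 of the 7 were below 0, among them En1 (-0.56), Pax2 (-0.67) and Pax5 (-0.69), with a list median of -0.07. The list mean was -2.84 and -3.09 in homozygous, -2.97 and -3.17 in heterozygous, and -3.13 and -2.96 in wild-type embryos.

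Of 7 tested placenta and decidua probes out of 11 on the array, 4 were lower and 1 higher (71.4%, against 27.7% of all tested probes). The lower ones included all 3 tested Gcm1 probes, at -2.21, -2.29 and -3.23. The placental list mean was -0.87 and -1.39 in homozygous, 0.05 and -0.29 in heterozygous, and -0.13 in both wild-type embryos. Without Gcm1, the mean of the other 4 probes was -2.93 and -2.73 in homozygous, -2.76 and -2.96 in heterozygous, and -2.95 and -3.06 in wild-type embryos, so without Gcm1 the mean was not lower in homozygous embryos. This split was made after the values were seen. Of these 4, Psg17 was called lower (-0.69) and Prl3d1 higher (0.77). Of 8 hepatocyte probes 3 were higher, with list means of 3.66 and 3.61 in homozygous, 2.95 and 3.36 in heterozygous, and 3.25 and 3.11 in wild-type embryos. None of 7 erythroid and 8 lung and gut endoderm probes was called, 1 of 8 muscle probes was higher, 1 of 8 neuron probes was lower, and of 8 macrophage probes 2 were higher and 1 lower. Each of these lists is short, so such counts say little beside the 27.7% of all tested probes. The part of these tissues in the FGF differences was not tested.

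Several of the probes called higher were dim. The higher Fgf8 probe had unscaled signals of 124 and 75 in homozygous, 51.4 and 49.2 in heterozygous, and 45.6 and 39.9 in wild-type arrays. Spry1 had 2333 and 1603 in homozygous, 6617 and 6702 in heterozygous, and 5384 and 6066 in wild-type arrays. With normexp correction the differences from wild type of the dim Fgf8, Fgf14 and Fgf21 probes were 0.97, 0.71 and 0.59 after the 75th percentile and 0.83, 0.48 and 0.30 after quantile normalization. Those of Spry1 and Fgf18 at A_55_P1976356 were -1.16 and -1.51, and -1.18 and -1.53, with the same settings. Both normexp settings add an offset of 50, which draws the log2 differences of dim probes toward 0 whatever their source. Bright probes such as Spry1 can change little under it. The part of the background, which was higher on the homozygous arrays, in the higher dim probes was not tested, and these settings cannot test it.

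**Figure D5:**
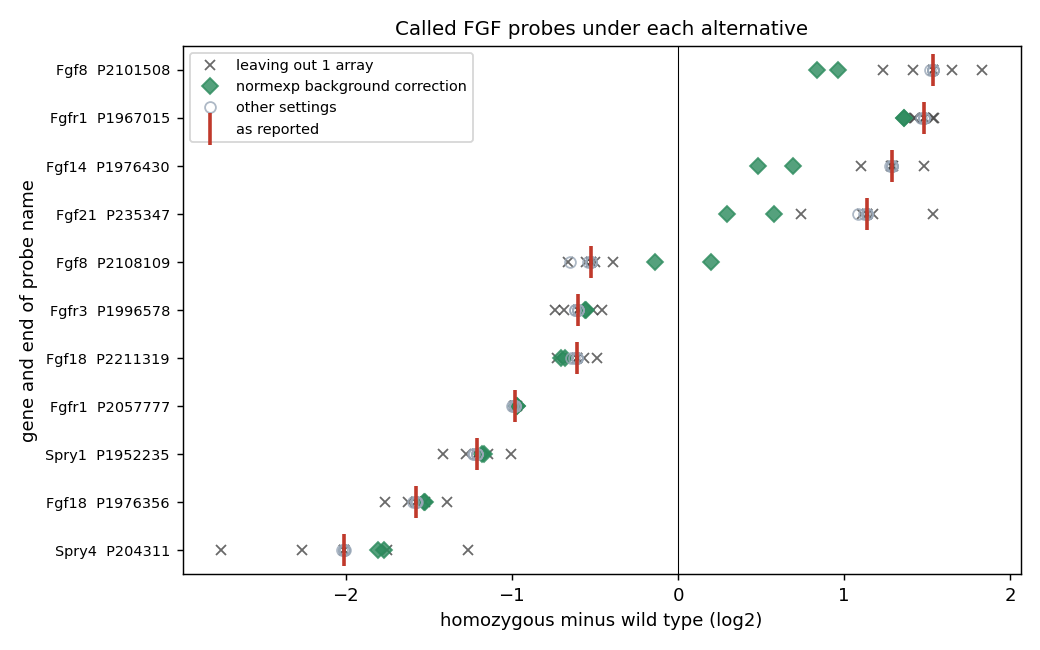
Each row is 1 FGF probe called between homozygous and wild-type embryos. The x axis is the difference (log2) as reported (red line), with normexp background correction (green diamonds), without 1 array (crosses) and under the other alternatives (open circles). The dim Fgf8, Fgf14 and Fgf21 probes shift most with normexp, Spry4 shifts most without a homozygous array, and the Fgf8 probe P2108109 changes its sign.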

How the data were processed

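The FGF genes, pathway and marker lists were chosen with earlier results of these data known, and sequences and singled-out probes after their values were seen. Per the file headers, the authors' deposited scanner files hold the processed spot intensity from Agilent Feature Extraction 11.0.1.1 (version per the submitters' processing notes), background-subtracted, plus the median spot and local background intensity and flags per spot. The authors also deposited a table of normalized log2 values with equal column medians of 6.73, made by a method not given in the sources used here, and each column correlated with its own array's log2 intensity at r of 0.995 or above.

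Control spots and outlier spots were left out, spots of a probe were averaged, and log2 processed intensity was centred on each array's 75th percentile of gene spots. Probe accessions were matched to gene symbols through a RefSeq table (GRCm38.p6, names only), which named 27234 of 39429 probes (69.1%). All 6 arrays were fitted with limma 3.58.1 in R 4.3.3 (3 residual and 3.37 prior degrees of freedom), with Benjamini-Hochberg adjustment. The script was tested on simulated data. For an FGF probe not well above background on either array of a genotype, no fold is given. Alternatives were normexp (offset 50, on the median spot signal, since the files hold no mean signal), quantile normalization, another percentile, the authors' table, no brightness filter, 1 probe per gene, 2 genotypes only, a replicate block and leaving out each array. Values are given for each called FGF probe and for the probe with the highest mean of each tested ligand and receptor, with other probes as counts or examples. Some results on signal relay genes are not reported here.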

Additional observations from a re-analysis of the deposited data

How the results depend on the processing

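In homozygous against wild-type embryos the called probes of Fgf18 (A_55_P1976356), Fgf14 (A_55_P1976430) and Fgf8 (A_55_P2101508) passed under every alternative in which they were fitted, and the other FGF calls were lost in at least 1. FGF probes called higher numbered 2 with 1 probe per gene, and 3 were called lower with no brightness filter, where more probes were tested. Leaving out 1 array gave 2133 to 10783 called probes of all genes, 2 to 7 FGF probes higher and 1 to 8 lower. In heterozygous against wild-type embryos it gave 0 to 7 probes of all genes and none of the FGF set. Homozygous against heterozygous, 13792 probes were called with normexp and the 75th percentile and 3594 with 2 genotypes only, which leaves fewer arrays. FGF probes called higher numbered 9 with that normexp setting and 1 with 1 probe per gene, and 4 were called lower with 2 genotypes only. Leaving out 1 array gave 1922 to 9558 called probes of all genes, 3 to 4 FGF probes higher and 1 to 9 lower. With that normexp setting the all-probe median was 0.19 in the comparison with wild type, against 0.08 as reported, and 0.24, against 0.07, in that with heterozygous embryos. The same setting reversed Fgf8 A_55_P2108109 to 0.20 against wild type, and Etv1 A_55_P1986321 to 0.38, Fgf20 A_55_P2169499 to 0.18 and Fgf4 to 0.045 against heterozygous embryos. The Etv1 probe was not well above background on either homozygous array, so its value has no size or direction to report. Relative to the shifted medians the other 3 were 0.01, -0.06 and -0.20, and the cause was not tested. Deviations of same-numbered embryos from their genotype means correlated at -0.16 for homozygous with wild type, -0.002 for heterozygous with wild type and 0.29 for homozygous with heterozygous, and with 2 embryos per genotype the numbers were not taken as pairs. With the replicate number as a block, 8072, 0 and 6542 probes were called, Fgfr3 A_55_P1996578 lost its calls (adjusted p = 0.0503 against wild type and 0.0539 against heterozygous embryos), Fgf20 A_55_P2169499 gained one against wild type (0.0380), and no other FGF call changed. A crossed pairing, added after seeing the data, called 9348 probes, with 5 FGF probes higher and 8 lower. Signal near background limits Fgf21, Fgf14 A_55_P1976430 and A_55_P2019998, both tested Fgf8 probes, Fgf4, Fgf20, Etv1 A_55_P1986321 and the probes that were not tested. The called Fgf14 probe and the higher Fgf8 probe passed under every alternative. Their differences from wild type were smaller, at 0.48 and 0.83, under normexp and quantile normalization, where the offset of 50 draws dim probes toward 0.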
